A study of Homo sapiens with 8 samples.

Results

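The microRNA processing and silencing machinery was measured here through 10 genes, DROSHA, DGCR8, XPO5, DICER1, TARBP2, PRKRA, TNRC6A, TNRC6B, TNRC6C and XRN1. The members were found by name, as every probe whose gene name in the array files is 1 of these 10, and no measured value is part of that rule. The rule gave 13 probes out of 58201 gene probes, and 10 genes out of 43317 gene names. XPO5 had 3 probes, TNRC6C had 2 and each other gene had 1.

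A primary microRNA transcript is cut in the nucleus by the Microprocessor, in which DROSHA is the RNase III enzyme and DGCR8 its RNA-binding partner. Exportin-5 (XPO5) carries the hairpin to the cytoplasm, where DICER1, held by the double-stranded RNA-binding proteins TRBP (TARBP2) and PACT (PRKRA), cuts it to a duplex whose guide strand is loaded onto an Argonaute protein. The GW182 proteins TNRC6A, TNRC6B and TNRC6C connect Argonaute with the deadenylases, and XRN1 degrades the decapped messenger RNA. A duplex transfected as a mature microRNA enters this pathway after the steps of DROSHA and DICER1, so that the cells receive the product of the processing enzymes and not their substrate.

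Messenger RNA was compared on 8 two-colour oligonucleotide microarrays of 1 slide (Agilent, 60-mer probes), each with RNA of mock cells in Cy3 and RNA of transfected cells of the same line in Cy5. PC3, a prostate cancer line, received miR-150-5p, miR-150-3p, miR-99a-3p or miR-100-3p. FaDu, a hypopharyngeal squamous cell carcinoma line, received miR-99a-5p or miR-99a-3p. PANC-1, a pancreatic cancer line, received si-FOXQ1-1 or si-FOXQ1-2, which are siRNAs against the transcription factor gene FOXQ1. All transfections used Lipofectamine RNAiMAX. The labels describe the mock cells as not transfected and give neither a dose nor a time, and no array with a control microRNA or a control siRNA was analysed here. A response to the reagent or to any small RNA therefore cannot be told apart from that to the named RNA. Each transfection has 1 array and no dyes were exchanged, so that no test was possible for a transfection, and a dye bias of a probe cannot be told apart from the transfection on an array taken alone.

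The transfected microRNAs of the miR-99 and miR-100 hairpins are printed because the arrays compare both arms of 1 hairpin and the same arm of related hairpins. The seed, bases 2 to 8 from the 5′ end, is in capitals in the mature sequences, and both mature arms are in capitals in the hairpins. The sequences are those of RefSeq on GRCh38.p14, with MIR99A at chr21:16539089-16539169 on the plus strand and MIR100 at chr11:122152229-122152308 on the minus strand.
miR-99a-5p: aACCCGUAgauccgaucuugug
miR-99a-3p: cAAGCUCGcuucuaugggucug
miR-100-3p: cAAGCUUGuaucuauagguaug
MIR99A hairpin: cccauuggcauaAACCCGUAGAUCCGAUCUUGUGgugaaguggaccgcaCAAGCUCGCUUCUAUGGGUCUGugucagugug
MIR100 hairpin: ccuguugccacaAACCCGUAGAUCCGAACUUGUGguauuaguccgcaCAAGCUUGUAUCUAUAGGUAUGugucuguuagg
Counted from 1 at the 5′ end of miR-99a-3p, miR-100-3p differs from it at 5 of 22 bases, with C7U in the seed and C9U, U10A, G16A and C20A outside it. The arms of MIR99A have different seeds, ACCCGUA in miR-99a-5p and AAGCUCG in miR-99a-3p.

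On each array 60901 spots held gene probes, of which 81 to 178 were left out for an outlier flag, with no saturated spot. Between 44.5% and 49.2% of these spots were well above background in Cy3, and between 37.2% and 41.8% in Cy5. FOXQ1 had a log2 ratio of -2.16 (spot error 0.29) with si-FOXQ1-1 and -2.12 (0.28) with si-FOXQ1-2. All 6 squamous markers, among them KRT5 and TP63, were above background in mock FaDu cells, against 1 of 6, SFN, in all mock channels of PC3 and of PANC-1. Of the prostate markers 5 of 7 were above background in all 4 mock PC3 channels, against 3 of 7 in each other line, and KLK3 was in none. Their mean log2 level was low in every line, 6.99 in PC3, 6.39 in FaDu and 6.46 in PANC-1. Of the ductal markers KRT7, KRT19, SOX9 and MUC1 were above background in every line, and PDX1 in none, so that these genes do not mark PANC-1 among the lines. Of 4 markers of other cell types 2 were above background in all mock channels of each line. These were COL1A1 in every line, PECAM1 in PC3, and PTPRC in FaDu and PANC-1. A signal above background alone thus does not mark a cell type here.

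The mock channels fell into pairs. Over the 284 to 288 probes with at least 5 spots, the Cy3 channels of both FaDu arrays, of both PANC-1 arrays, of the PC3 miR-150-5p and miR-150-3p arrays, and of the PC3 miR-99a-3p and miR-100-3p arrays differed by 0.971 to 1.17 times the noise between spots. Any PC3 mock channel of the first pair differed from any of the second by 4.83 to 5.15 times that noise. The Cy5 channels of arrays of a line differed by 8.35 to 21.1 times the noise. Channels that differed by no more than the spots were counted as 1 sample, which leaves 2 mock samples for PC3, 1 for FaDu and 1 for PANC-1. Arrays that share a mock sample are compared below with that shared control on both sides.

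DICER1 was the member with the largest ratio, at more than 3-fold over mock with miR-99a-3p in both PC3 and FaDu cells, and it was within 1.5-fold of mock with miR-100-3p in PC3 and with miR-99a-5p in FaDu. TNRC6A, TNRC6C by its probe 1 and DICER1 lay above 0 on all 8 arrays. XPO5 was the lowest member, by 1 of its 3 probes, with miR-99a-3p in PC3. DROSHA, TARBP2 and PRKRA stayed within 1.5-fold of mock on all 8 arrays. Of 104 probe-by-array values, 95 were measured well above background in both channels, and of these 12 were at least 1.5-fold higher than mock, 4 of them DICER1, 1 was at least 1.5-fold lower and 82 were within 1.5-fold. At 73 of the 95 the ratio lay within 2 spot errors of 0, and the share of members beyond them was near the 21.7% of all gene probes over the 8 arrays. The spot error is the scanner software's error of a log2 ratio, a technical error with a median of 0.21 to 0.22 over all gene probes of an array, which leaves out the variation between cultures. The mock channels of a line spread less, with a median SD of 0.041 to 0.073 in their log2 Cy3 signals. A ratio within 2 spot errors of 0 is therefore not shown to equal mock.

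**Figure D1:**
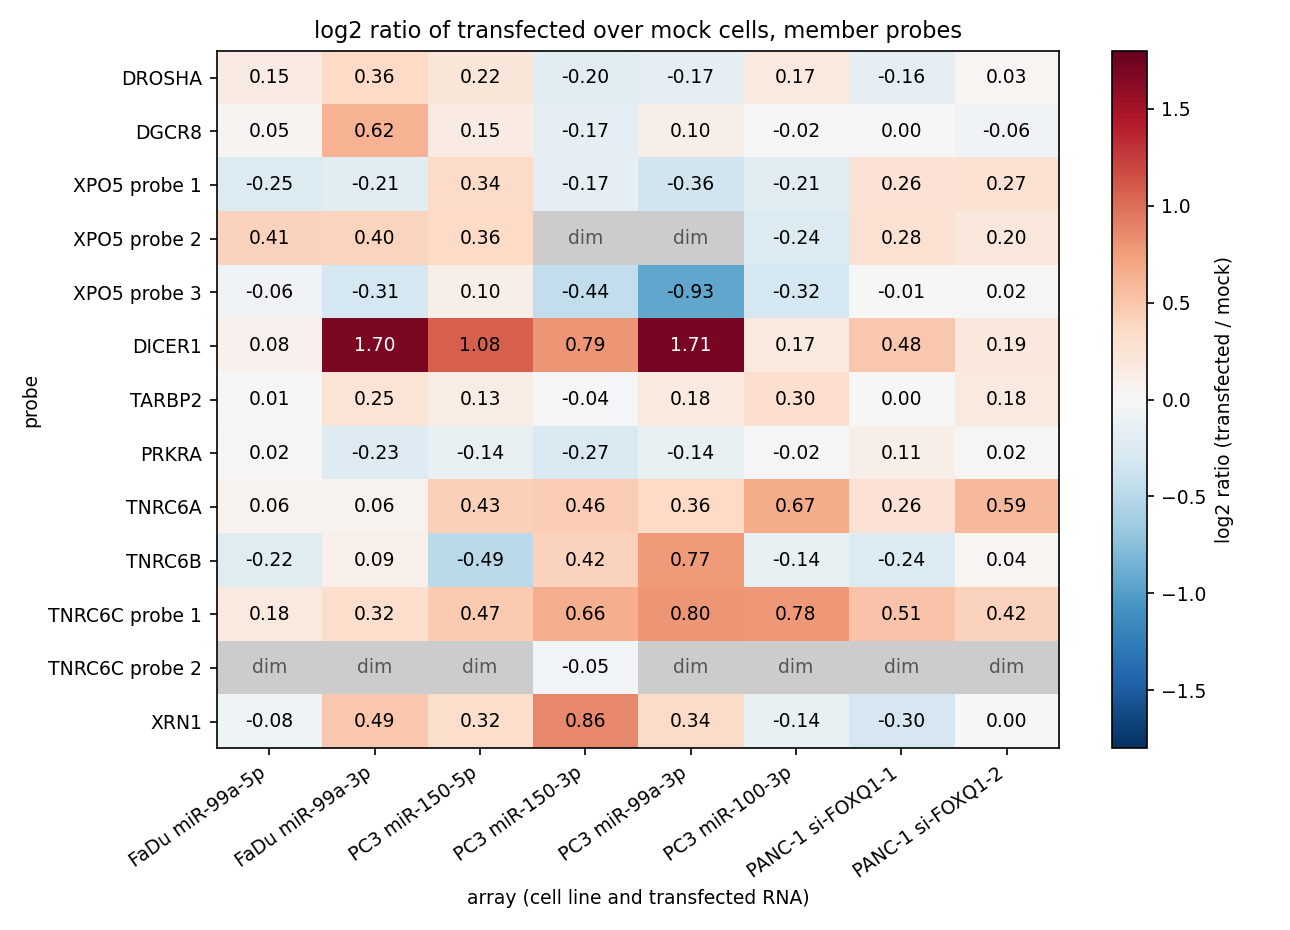
The log2 ratio of transfected over mock cells is shown as colour and number for the 13 probes (rows) on the 8 arrays (columns), with 1 array per column and values not above background in both channels marked dim. DICER1 is darkest on the FaDu miR-99a-3p (1.70) and PC3 miR-99a-3p (1.71) arrays, and XPO5 probe 3 is lowest on the latter (-0.93).

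Read against all gene probes measured in both channels, the members' share at least 1.5-fold higher was above that of all probes on 5 of the 8 arrays, the 4 PC3 arrays and si-FOXQ1-2, and the share at least 1.5-fold lower was below it on all 8. With miR-99a-3p in PC3 3 of 11 member probes were higher, where 13.9% of all gene probes were, and 1 was lower, where 11.7% were. On the FaDu miR-99a-3p array 2 of 12 were higher, where 18.3% of all were, and 0 were lower, where 15.9% were. The FaDu share of members was thus near that of all probes. On the PC3 miR-150-3p array 3 of 12 were higher, against 10.5% of all, and 0 were lower, against 9.22%. On the PC3 miR-100-3p array 2 of 12 were higher, against 4.69%, and 0 lower, against 3.54%. On the PC3 miR-150-5p array 1 of 12 was higher, against 4.67%, and 0 lower, against 3.84%. With so few members each count rests on 1 to 3 named probes, which are given below. The shares of all gene probes hold for the deposited ratios, and were smaller with another background correction and normalization. On the FaDu miR-99a-5p array 0 of 12 were higher, against 4.81%, and 0 lower, against 2.82%. On the si-FOXQ1-1 array 0 of 12 were higher, against 4.05%, and 0 lower, against 3.21%. On the si-FOXQ1-2 array 1 of 12 was higher, against 3.01%, and 0 lower, against 2.70%. The median log2 ratio of the members was -0.04 to 0.28 over the 8 arrays, beside 0.00 to 0.07 for all gene probes.

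**Figure D2:**
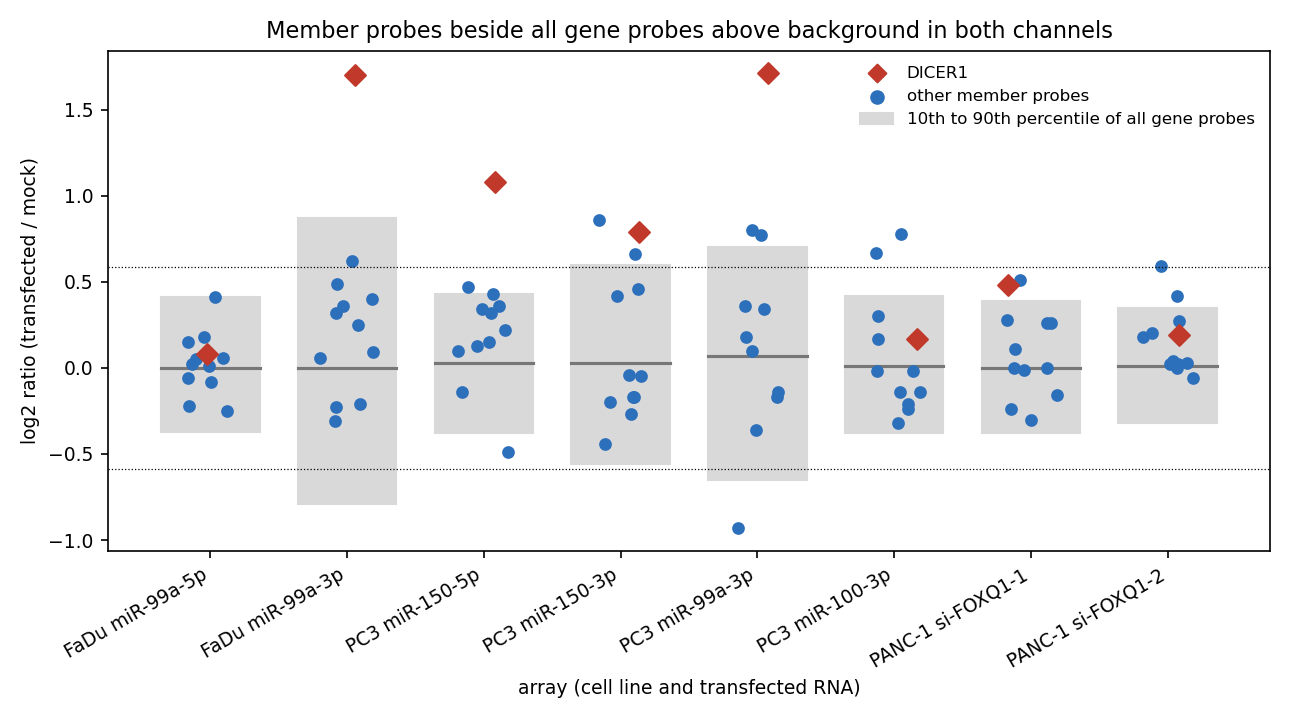
Log2 ratios (vertical axis) of the member probes above background in both channels are drawn as points on each of the 8 arrays, beside the 10th to 90th percentile of all such gene probes (grey box) and their median (grey line), with dotted lines at 1.5-fold. DICER1 (diamonds) lies above the grey box on the PC3 and FaDu miR-99a-3p arrays, both miR-150 arrays and the si-FOXQ1-1 array, and within it on the other 3.

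The nuclear step showed small ratios. DROSHA was read by a probe at chr5:31401473-31401532 on the minus strand of hg19, the build of the array annotation, which assigns each probe to its gene and gives no exon. Its log2 ratio was 0.15 with miR-99a-5p and 0.36 with miR-99a-3p in FaDu. In PC3 it was 0.22 with miR-150-5p, -0.20 with miR-150-3p, -0.17 with miR-99a-3p and 0.17 with miR-100-3p. With the siRNAs in PANC-1 it was -0.16 and 0.03. All 8 values lay within 2 spot errors of 0 (errors 0.20 to 0.21), so that no array separated DROSHA from its mock cells by that error.

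DGCR8, which recognises the primary transcript together with DROSHA, was read at chr22:20098916-20098975 on the plus strand. On the FaDu miR-99a-3p array it had a log2 ratio of 0.62 (spot error 0.21), with mock signal 616 and transfected signal 947, which is 1.54-fold. On the other 7 arrays it lay between -0.17, with miR-150-3p in PC3, and 0.15, with miR-150-5p in PC3. The FaDu miR-99a-5p array, on the same mock sample, had 0.05, and the difference between both FaDu arrays was 0.57 with a 95% interval from the spot errors of -0.02 to 1.15. The higher value with miR-99a-3p thus did not clear the spot errors of the difference. Of all gene probes on that array 17.1% had a ratio at least as high.

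For XPO5, the export receptor of the hairpin, the 3 probes did not give the same picture. Probe 1, at chr6:43490583-43490642 on the minus strand, had log2 ratios between -0.36 with miR-99a-3p and 0.34 with miR-150-5p, both in PC3, and all 8 lay within 2 spot errors of 0. Probe 3, at chr6:43494424-43494483, reached -0.93 on the log2 scale (spot error 0.22) in PC3 with miR-99a-3p, where the mock signal was 654 and the transfected signal 344, a 1.90-fold lower value that 4.88% of all gene probes reached. In PC3 it was -0.44 with miR-150-3p, -0.32 with miR-100-3p and 0.10 with miR-150-5p. In FaDu it was -0.31 with miR-99a-3p and -0.06 with miR-99a-5p, and in PANC-1 it was -0.01 and 0.02. Probe 3 was thus lower with 3 of the 4 microRNAs in PC3, with the miR-150-3p and miR-99a-3p values beyond 2 spot errors.

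Probe 2 of XPO5, at chr6:43491398-43491457, was dim, with mock signals of 44.9 to 82.3. In PC3 with miR-99a-3p and with miR-150-3p its Cy5 signal, 40.8 and 41.8, was not well above background, so that no measured fold is given there. After loess and Aquantile normalization its mock and transfected levels were 6.93 and 6.63 with miR-99a-3p, and 7.00 and 6.67 with miR-150-3p. These readings are 1.23-fold and 1.25-fold lower, and are no bound, since a Cy5 signal near background is uncertain. They include the normexp offset of 50 in both channels, which draws ratios of dim signals toward 0. The deposited log2 ratios, without that offset, were -1.01 (spot error 0.39) with miR-99a-3p and -0.79 (0.32) with miR-150-3p. They are uncertain for the same reason. On the 6 arrays where both channels were above background it lay between -0.24, with miR-100-3p in PC3, and 0.41 (spot error 0.28), with miR-99a-5p in FaDu. In FaDu its values of 0.41 and 0.40 had the opposite sign to those of probe 1, -0.25 and -0.21, all within 2 spot errors. With miR-99a-3p in PC3 all 3 read below mock, by different amounts, probe 2 with its Cy5 signal not well above background. The cause of the spread among probes was not tested.

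DICER1, the RNase III enzyme that releases the duplex, was read by 1 probe at chr14:95552615-95552674 on the minus strand. In PC3 cells the signal with miR-99a-3p was 3009 against 917 in the mock cells of that array, a log2 ratio of 1.71 (spot error 0.26) or 3.28-fold. In FaDu cells the signal with miR-99a-3p was 7244 against 2232, a log2 ratio of 1.70 (0.26) or 3.25-fold. The ratios differed by 0.02 between the lines, with a 95% interval from the spot errors of -0.70 to 0.73. Only 118 of 22461 gene probes measured in both channels, 0.525%, had a ratio as high in PC3, and 324 of 21106, 1.54%, in FaDu.

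The other arm of the hairpin and the related hairpin gave a different reading. With miR-99a-5p in FaDu the log2 ratio of DICER1 was 0.08 (spot error 0.20), its signals being 1335 and 1407. With miR-100-3p in PC3 it had 0.17 (0.21), from signals of 602 and 680. Both are close to mock. In FaDu the ratio with miR-99a-3p exceeded that with miR-99a-5p by 1.62 (95% interval from the spot errors 0.98 to 2.27). In PC3 the ratio with miR-99a-3p exceeded that with miR-100-3p, whose seed differs at C7U, by 1.54 (0.89 to 2.19). Each of these differences is taken between arrays that share the mock sample and the dye order, so that a dye bias of the probe that is the same on both arrays is not part of it.

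With the miR-150 arms in PC3 DICER1 was also above mock. Its log2 ratio was 1.08 (spot error 0.23) with miR-150-5p, from signals of 679 and 1433, and 0.79 (0.22) with miR-150-3p, from signals of 852 and 1478. These are 2.11-fold and 1.73-fold, and 0.413% and 5.48% of all gene probes were as high. The arms differed by 0.28 (95% interval from the spot errors -0.33 to 0.90), which neither separates them nor shows that they act alike. With the siRNAs in PANC-1 DICER1 had 0.48 (0.21) with si-FOXQ1-1 and 0.19 (0.21) with si-FOXQ1-2, both within 1.5-fold. The lower values of miR-99a-5p, miR-100-3p and si-FOXQ1-2 came from 3 different cell lines, so that a ratio near 0 was seen in every line.

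**Figure D3:**
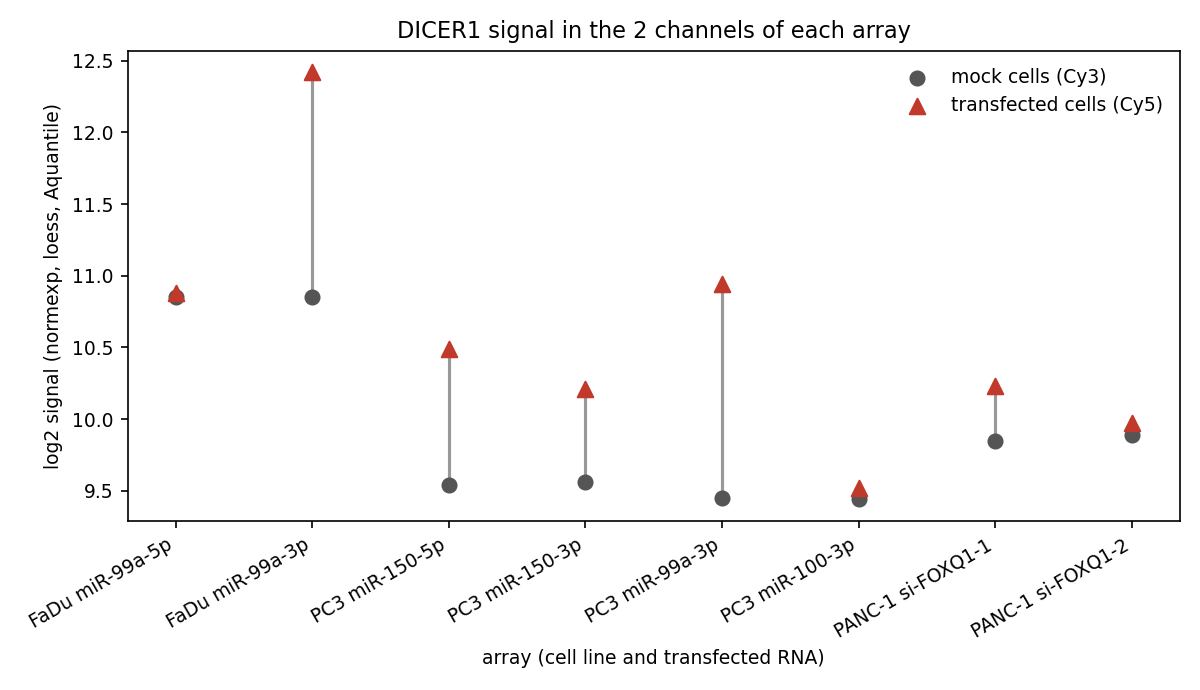
The DICER1 log2 signal after normexp, loess and Aquantile normalization is shown on the vertical axis for mock cells (grey circles, Cy3) and transfected cells (red triangles, Cy5) of each of the 8 arrays, 1 probe and 1 spot each. The mock signal is 9.44 to 9.56 in PC3 and 10.85 on both FaDu arrays, and the transfected signal leaves it most with miR-99a-3p.

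The DICER1 differences lay in the transfected channel. After loess and Aquantile normalization the mock level of DICER1 was 9.54, 9.56, 9.45 and 9.44 in the 4 PC3 channels, with an SD of 0.07 between the 2 mock samples. The PC3 transfected level was 10.94 with miR-99a-3p, 10.49 with miR-150-5p, 10.21 with miR-150-3p and 9.52 with miR-100-3p. With the mean of all 4 PC3 mock channels as the control, these lay 1.44, 0.99, 0.71 and 0.02 above it, in the same order as the deposited ratios. In FaDu the mock level was 10.85 on both arrays, and the transfected level was 12.42 with miR-99a-3p and 10.88 with miR-99a-5p.

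Genes of other processes also had ratios far from 0 on these arrays. The 12 proliferation genes, such as MKI67 and CCNB1, had a median log2 ratio of -2.11 with miR-99a-3p in PC3, with 12 of 12 at least 1.5-fold lower, and of 0.96 in FaDu, with 12 of 12 at least 1.5-fold higher. DICER1 was above 3-fold on both of these arrays. With miR-100-3p in PC3 the median of the proliferation genes was -0.46. The 16 genes of double-stranded RNA sensing and interferon response had their highest median, 1.87, with miR-150-3p in PC3, where 14 of 14 measured were at least 1.5-fold higher. With miR-99a-3p their median was -0.16 in PC3 and 0.95 in FaDu, and it was -0.26 with miR-150-5p in PC3, where DICER1 was 2.11-fold higher. The part of these genes' processes in the DICER1 values was not tested.

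The genes whose log2 ratio was most like that of DICER1 over the 8 arrays, by Pearson correlation among 13243 genes measured in both channels on all 8, were C16orf72 (r = 0.97), G3BP2 (0.97), SLC4A11 (0.97), HIST1H2BK (0.96) and LOC283911 (0.96). HIST1H2BK encodes a histone, and G3BP2 a stress granule protein. HIST1H2BK had log2 ratios of 1.65 with miR-99a-3p in PC3 and 1.57 in FaDu, beside 0.25 and 0.15 with the miR-150 arms and -0.50 with miR-100-3p. C16orf72 and G3BP2 spanned only 0.55 and 0.72 from the lowest to the highest array, where DICER1 spanned 1.63. These correlations describe 8 points that share mock samples in pairs, and are a description only.

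The partners of DICER1 stayed near mock. TARBP2 was read at chr12:53899897-53899956 on the plus strand, and its log2 ratio ran from -0.04 with miR-150-3p to 0.30 (spot error 0.21) with miR-100-3p, both in PC3. With miR-99a-3p it was 0.18 in PC3 and 0.25 in FaDu. PRKRA was read at chr2:179296141-179296179 on the minus strand, a mapped stretch of 39 bases where the other probes span 60. Its log2 ratio ran from -0.27 (0.21) with miR-150-3p in PC3 to 0.11 with si-FOXQ1-1, and it was -0.14 in PC3 and -0.23 in FaDu with miR-99a-3p. All 16 values of these genes lay within 2 spot errors of 0, including those on the arrays where DICER1 exceeded 3-fold.

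In the GW182 family TNRC6A and TNRC6C probe 1 lay above 0 on all 8 arrays, and TNRC6B on 4 of 8. TNRC6A was read at chr16:24835610-24835669 on the plus strand. In PC3 its log2 ratio was 0.43 with miR-150-5p, 0.46 with miR-150-3p, 0.36 with miR-99a-3p and 0.67 (spot error 0.21) with miR-100-3p, the last from signals of 364 and 581, or 1.60-fold. In PANC-1 it was 0.26 with si-FOXQ1-1 and 0.59 (0.21) with si-FOXQ1-2, from signals of 617 and 929, or 1.51-fold. In FaDu it was 0.06 on both arrays. TNRC6A was therefore highest with miR-100-3p, where DICER1 was near mock, and the values of the 4 PC3 arrays were not separated by their spot errors.

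TNRC6C, read by probe 1 at chr17:76101674-76101733 on the plus strand, also lay above 0 on every array. In PC3 its log2 ratio was 0.80 (spot error 0.22) with miR-99a-3p, 0.78 (0.22) with miR-100-3p, 0.66 (0.21) with miR-150-3p and 0.47 with miR-150-5p. The first 3 are 1.75-fold, 1.72-fold and 1.58-fold. In PANC-1 it was 0.51 and 0.42, and in FaDu it was 0.32 with miR-99a-3p and 0.18 with miR-99a-5p. The values with miR-99a-3p and miR-100-3p in PC3 differed by 0.03 (95% interval from the spot errors -0.58 to 0.63), where those of DICER1 differed by 1.54. A probe that lies above 0 on all arrays may carry a dye bias, which cannot be told apart from a shared response here, since no dyes were exchanged.

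Probe 2 of TNRC6C, at chr17:76104813-76104872, was well above background in both channels on 1 array only, PC3 with miR-150-3p, where its signals of 117 and 113 gave a log2 ratio of -0.05 (spot error 0.24). On the other 7 arrays its Cy3 signal was 5.20 to 30.8 and its Cy5 signal was below the background limit. The PC3 miR-150-5p array, on the same mock sample, had 17.9 in Cy3, so that mock RNA counted as 1 sample gave different signals at this probe. The Cy5 signal was likewise highest on the miR-150-3p array, at 113 against 7.71 to 24.9 on the other 7. Both channels of that array were thus high, and the cause was not tested.

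TNRC6B, read at chr22:40719222-40719281 on the plus strand, had values of both signs in PC3. Its log2 ratio was 0.77 (spot error 0.22) with miR-99a-3p, from signals of 890 and 1513, or 1.70-fold. It was 0.42 (0.21) with miR-150-3p, -0.14 with miR-100-3p and -0.49 (0.21) with miR-150-5p. The spread of 1.26 over the 8 arrays was the widest among the family. The arms of miR-150 differed by -0.91 (5p minus 3p, 95% interval from the spot errors -1.49 to -0.33), and miR-99a-3p exceeded miR-100-3p by 0.91 (combined spot error 0.30). In FaDu TNRC6B had 0.09 with miR-99a-3p and -0.22 with miR-99a-5p, so that the PC3 value with miR-99a-3p lay 0.68 above the FaDu value (0.09 to 1.26). In PANC-1 it had -0.24 and 0.04.

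**Figure D4:**
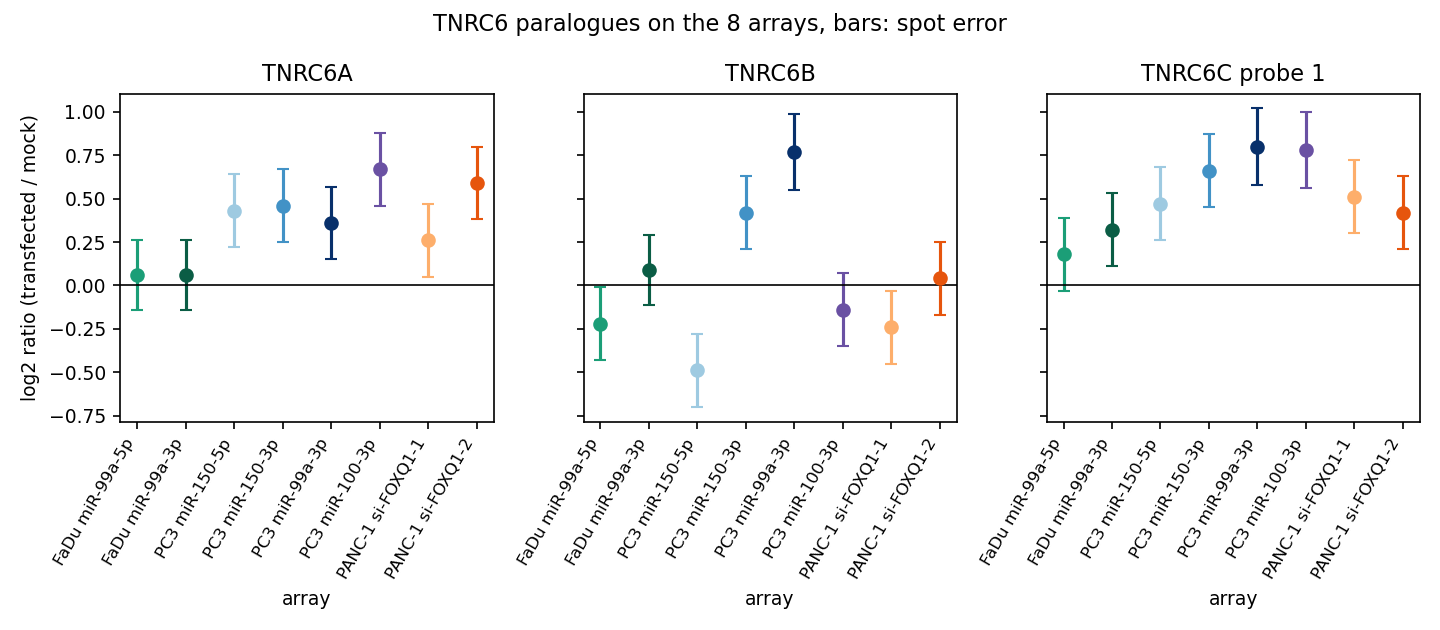
The log2 ratio of transfected over mock cells (vertical axis) of TNRC6A, TNRC6B and TNRC6C probe 1 is shown on each of the 8 arrays, with bars for the spot error of 1 spot. TNRC6A and TNRC6C lie above 0 on all 8 arrays, and TNRC6B ranges from -0.49 with miR-150-5p to 0.77 with miR-99a-3p, both in PC3.

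XRN1, the 5′ to 3′ exonuclease, was read at chr3:142025612-142025671 on the minus strand. Its highest log2 ratio was 0.86 (spot error 0.22) with miR-150-3p in PC3, from signals of 354 and 642, or 1.81-fold, and 4.42% of all gene probes on that array were as high. In PC3 it was 0.32 with miR-150-5p, 0.34 with miR-99a-3p and -0.14 with miR-100-3p, and in FaDu it was 0.49 (0.21) with miR-99a-3p and -0.08 with miR-99a-5p. In PANC-1 it was -0.30 with si-FOXQ1-1 and 0.00 with si-FOXQ1-2. XRN1 had its highest value on the miR-150-3p array, on which 14 of 14 interferon-response genes were higher, and that list's part in the value was not tested.

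Between arrays that share a mock sample, the members that differed by more than 2 combined spot errors were no larger a share than of all gene probes. Between miR-99a-3p and miR-100-3p in PC3 these were 2 of 11 probes, DICER1 and TNRC6B, where 23.2% of all gene probes differed as much. Between miR-150-5p and miR-150-3p in PC3 it was 1 of 11, TNRC6B, against 17.0% of all. Between miR-99a-3p and miR-99a-5p in FaDu it was 1 of 12, DICER1, against 27.8% of all. Between the 2 siRNAs it was 0 of 12, against 6.68% of all. For the same microRNA in different lines, miR-99a-3p in PC3 and FaDu, it was 2 of 11, XPO5 probe 3 (PC3 minus FaDu -0.61, 95% interval from the spot errors -1.21 to -0.01) and TNRC6B, against 39.9% of all. DICER1 thus differed between the arms of miR-99a in FaDu and between the related 3p arms in PC3, where XPO5 probe 3, at -0.61 (combined spot error 0.31), lay just under 2 combined errors.

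The 60 other genes of the pathway were described by their brightest probe. With miR-99a-3p in FaDu 15 of 58 measured genes were at least 1.5-fold higher, against 18.3% of all gene probes, and 2 lower, against 15.9%. In PC3 5 of 57 were higher, against 13.9%, and 7 lower, against 11.7%. With miR-150-3p 4 of 58 were higher, against 10.5%, and 3 lower, against 9.22%. On the other 5 arrays at most 2 were higher, against 3.01% to 4.81%, and at most 1 lower, against 2.70% to 3.84%. The median of the list lay between -0.07 and 0.14 over the 8 arrays. The shares are over all gene probes of the same arrays, where the list has 1 probe a gene.

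Of the 4 Argonaute genes, which encode the proteins that hold the guide strand, AGO4 was higher with miR-150-3p in PC3, at a log2 ratio of 1.01 (spot error 0.23), and with miR-99a-3p in PC3, at 0.70 (0.22). AGO2, the Argonaute able to cut its target, was lower with miR-99a-3p in PC3, at -0.77 (0.22). The 4 genes thus had values of both signs on these arrays. In FaDu with miR-99a-3p all 4 were below 0, with AGO2 at -0.52 and AGO4 at -0.47, within 1.5-fold.

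The chaperones that help load Argonaute had opposite signs in FaDu and PC3 with miR-99a-3p. HSP90AA1 had 1.60 (spot error 0.25) and HSPA8 1.03 (0.22) in FaDu, and -0.97 (0.22) and -0.71 (0.21) in PC3. RAN, the GTPase of exportin transport, had 1.06 (0.23) in FaDu and -0.86 (0.22) in PC3. NCBP1, a cap-binding protein, had 1.09 (0.23) in FaDu. These lie on the arrays on which the proliferation genes were higher in FaDu and lower in PC3, and that list's part in them was not tested.

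Among the deadenylase and decapping genes some were on the same side in both lines with miR-99a-3p. CNOT6L, a CCR4-NOT deadenylase, had 1.02 (spot error 0.23) in FaDu and 0.92 (0.22) in PC3, and 0.59 (0.21) with miR-150-3p. DCP2, the decapping enzyme, had 0.70 (0.22) in PC3 and 0.84 (0.22) in FaDu, and 0.63 (0.22) with miR-150-3p. EDC3, an enhancer of decapping, had -0.83 (0.22) in PC3 and -0.60 (0.21) in FaDu. In FaDu CNOT1, the scaffold of CCR4-NOT, was the lowest gene of the list, at -1.25 (0.24). In PC3 TOB1, which recruits CCR4-NOT, had 1.04 (0.23) and PAIP2, an inhibitor of poly(A)-binding protein, 0.88 (0.22).

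On the remaining arrays single genes passed 1.5-fold. With miR-150-3p in PC3 these were also ADAR, an RNA-editing enzyme, at 0.71 (spot error 0.21), and, lower, RQCD1 at -0.95 (0.27), PABPC4 at -0.92 (0.22) and KHSRP at -0.64 (0.21). With miR-150-5p it was CNOT7, at 0.69 (0.21), and with miR-100-3p it was FMR1, the fragile X protein gene, at -0.82 (0.22). With miR-99a-5p in FaDu they were HSP90AA1 at 0.65 (0.21) and BTG2 at 0.65 (0.22). No gene of the list passed 1.5-fold with either siRNA in PANC-1.

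The untransfected lines themselves differed in some members. FaDu mock cells had higher DICER1, TNRC6A, TNRC6B, XPO5 by its probe 1 and TNRC6C by its probe 1 than PC3 mock cells. Cy3 signals were quantile normalized and tested with limma over 21496 genes, with 2 PC3 mock samples, 1 FaDu and 1 PANC-1, where called means an adjusted p under 0.05 and at least 1.5-fold. PC3 and FaDu differed in 5 of 10 members, where 42.4% of all genes were called. PC3 and PANC-1 differed in 1 of 10, where 33.8% were. For FaDu and PANC-1, with 1 mock sample each, the fit called 3 of 10, DICER1, TNRC6B and TARBP2, where 39.8% of all genes were called, and since no spread within either line entered it, these are given below as differences between 2 samples, with no p. The members' counts were thus near or under those of all genes. Only PC3 had more than 1 mock sample, so that the fit has 1 residual degree of freedom and assumes the other lines to vary as PC3 did, and the labels do not say that mock samples came from separate cultures, so that p may measure technical spread.

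DICER1 had mock log2 levels of 8.97 to 9.10 in the 4 PC3 channels, 10.38 and 10.34 in FaDu, and 9.40 and 9.42 in PANC-1, and the lines did not overlap. It was 2.49-fold lower in PC3 than in FaDu (log2 difference -1.32, SE 0.12, adjusted p = 0.000204 by limma), and the FaDu sample lay 0.95 above the PANC-1 sample on the log2 scale. PC3 was 1.29-fold below PANC-1 (adjusted p = 0.0396 by limma), short of 1.5-fold. The FaDu sample thus had the highest DICER1 level of the mock samples.

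TNRC6A had 8.50, 8.54, 8.57 and 8.49 in PC3, 9.63 and 9.67 in FaDu, and 9.31 and 9.28 in PANC-1. It was the member called against both other lines in PC3, with a log2 difference of -1.13 from FaDu (SE 0.12, adjusted p = 0.000338 by limma) and of -0.77 from PANC-1 (SE 0.12, adjusted p = 0.00215 by limma). TNRC6B had 8.64, 8.67, 8.78 and 8.62 in PC3, 9.58 and 9.63 in FaDu, and 8.34 and 8.39 in PANC-1. The FaDu sample lay 1.24 above the PANC-1 sample, and TNRC6B was lower in PC3 than in FaDu (log2 difference -0.93, SE 0.12, adjusted p = 0.000799 by limma). The paralogues TNRC6A and TNRC6B therefore had their lowest level in different lines, for TNRC6B without a called difference between PC3 and PANC-1 (adjusted p = 0.0629 by limma).

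XPO5 probe 1 had 8.54 to 8.62 in PC3, 9.28 and 9.31 in FaDu, and 8.98 and 9.19 in PANC-1, and PC3 was 1.65-fold below FaDu (adjusted p = 0.00226 by limma). Probe 3 of XPO5 had a mean of 8.81 in PC3 and 9.39 in FaDu, and the dim probe 2 had 6.59 and 6.75. TNRC6C probe 1 had 8.13 to 8.21 in PC3, 8.93 and 8.74 in FaDu, and 8.46 and 8.54 in PANC-1, and PC3 was 1.59-fold below FaDu (adjusted p = 0.00313 by limma). Its probe 2, not above background in mock FaDu cells, had a mean of 6.31 in PC3 and 5.97 in FaDu. TARBP2 was lower in FaDu than in PANC-1, at 9.24 and 9.32 against 10.07 and 10.12. The samples differed by -0.81 (FaDu minus PANC-1). DROSHA, DGCR8, PRKRA and XRN1 were called in no comparison. For XRN1 the 2 PC3 mock samples, at 8.13 and 8.21 against 8.42 and 8.41, spanned as much as the lines did.

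**Figure D5:**
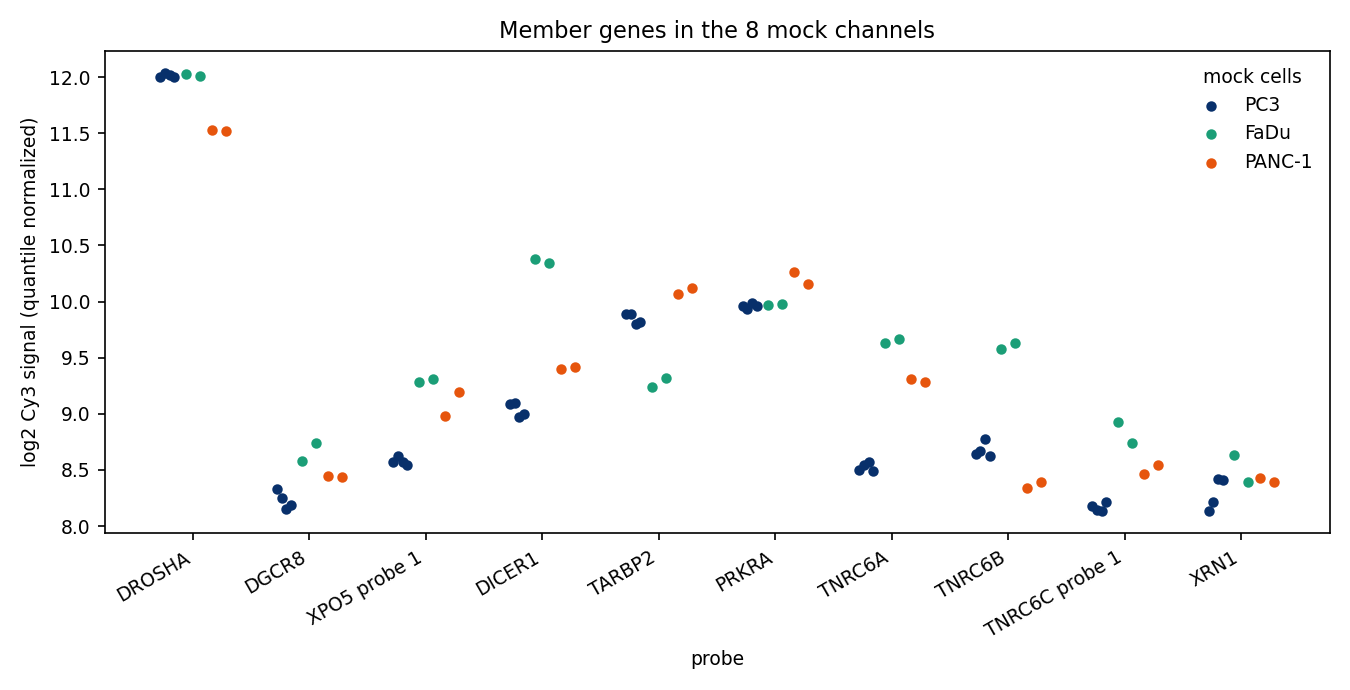
The quantile-normalized log2 Cy3 signal (vertical axis) of 1 probe of each member is shown for the 8 mock channels, with 4 points for PC3, 2 for FaDu and 2 for PANC-1, where points of a line that share a mock sample are not independent. DICER1 lies at 8.97 to 9.10 in PC3, 9.40 and 9.42 in PANC-1, and 10.34 and 10.38 in FaDu. Levels of different probes are not comparable with each other.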

How the data were processed

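Total RNA was extracted with Trizol, labelled with Cy3 (mock) and Cy5 (transfected) and hybridised to 8 arrays of 1 slide. The authors' scanner software, Agilent Feature Extraction 10.7.3.1 per the file headers, subtracted background, balanced the 2 dyes of an array with a linear step followed by lowess, and wrote the deposited log10 ratio (Cy5 to Cy3) and its error, besides the deposited mean, background and processed intensities and flags. The series table that the authors deposited, on the log10 scale as well, held the same ratios (largest difference 0.0). The deposited annotation columns (other) gave gene names and hg19 positions.

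Ratios were multiplied to the log2 scale. Outlier-flagged spots and control spots were left out, and spots of a probe averaged. A ratio was used where the probe was well above background in both channels. Probes past 1.5-fold were counted beside the same share of all gene probes. Mock Cy3 intensities were corrected with normexp (offset 50), quantile normalized and fitted in limma 3.58.1 (R 4.3.3) with eBayes and a trend, 1 residual degree of freedom and Benjamini-Hochberg adjustment over 21496 genes. The design had taken all 8 mock channels as samples, and those that differed, after a quadratic trend with signal was removed, by less than 1.5 times the noise between spots were averaged instead, a rule chosen after the values were seen. Simulated data for PC3 against FaDu had 21496 genes, with 100 changed by 1 and 100 by 2 on the log2 scale. Of these 98.0% and 100.0% were called, with 19 false calls over the run. All simulated samples had the fitted spread of a gene, so that the run does not check the assumption that FaDu varies as PC3 did. Python 3.11.15, pandas 2.3.3 and numpy 2.4.6 served the other steps. The genes named are the 10 members, genes of the wider list past 1.5-fold on an array (at most 5 per direction and array), FOXQ1 with the siRNAs and the 5 genes most like DICER1. The members and lists were chosen with earlier results of these data known. The number of arrays limits the precision. Target sites in transcripts were not analysed here, and 3 of the 5 transfected microRNAs had a sequence in the table used, so that miR-150-5p and miR-150-3p are named only. Alternatives were another background correction and normalization, other filters on dim probes and flags, centring, other rules for probes of a gene, other folds and, for the lines, leaving out each mock channel.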

Additional observations from a re-analysis of the deposited data

Results flagged for a closer look

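At probe 2 of TNRC6C the log2 level of 1 of the 4 PC3 mock channels, that of the miR-150-3p array, was 6.90, where the others were 6.08 to 6.14. Its gap to the nearest channel was 0.921 of the whole range, above Dixon's critical value for 4 values. That value is for independent measurements, where these channels are pairs from 2 mock samples. The rule was also applied to all 13 member probes, so that no chance rate is given. This channel shares its mock sample with that of the miR-150-5p array, at 6.14. The transfected channel of the miR-150-3p array was also the highest of its kind at this probe.

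With miR-99a-3p the following had opposite signs in PC3 and FaDu, each from 1 array per line, and the differences were not tested. DROSHA differed by -0.54 (PC3 minus FaDu), within 2 combined spot errors. The medians of gene lists differed by -3.07 for the proliferation genes, -1.11 for the double-stranded RNA sensing and interferon genes, -0.86 for the loading genes, 0.40 for the Argonautes, -0.19 for the CCR4-NOT and PAN2-PAN3 genes and -0.21 for all 60 pathway genes.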

How the results depend on the processing

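All 95 ratios of single member probes moved by less than their spot error with normexp and loess, and none past 1.5-fold changed sign. The same held with outlier-flagged spots kept and with centring, which shifts a ratio by the array median, at most 0.07. The series table holds the same ratios and the filters on dim probes change no measured ratio, so these alternatives could not move them. With normexp and loess DICER1 had a log2 ratio of 1.49 with miR-99a-3p in PC3 and 1.57 in FaDu. The count of member probes past 1.5-fold dropped to 1 in FaDu with miR-99a-3p under normexp and loess, and to 0 with si-FOXQ1-2 under normexp and loess or centring on the array median, since DGCR8 (1.54-fold) and TNRC6A (1.51-fold) lay close to the limit. Only counts that changed by more than a factor of 1.5 are listed. After loess and Aquantile normalization TNRC6B with miR-99a-3p in PC3 had 9.27 in mock and 9.84 in transfected cells, also just short of 1.5-fold. At 2-fold the count was 1 in FaDu with miR-99a-3p, 1 in PC3 with miR-99a-3p, and 0 with miR-150-3p, miR-100-3p and si-FOXQ1-2. The median of the members moved from -0.04 to 0.19 on the miR-150-3p array with the brightest probe of each member, which leaves out probes of XPO5 and TNRC6C. The shares of all gene probes past 1.5-fold also fell with normexp and loess, on every array and in both directions. With miR-99a-3p the number higher fell from 3112 to 1609 of 22461 in PC3 and from 3857 to 2591 of 21106 in FaDu. The shares set beside the members' counts thus depend on the processing.

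Between the mock lines, PC3 and FaDu differed in 3 members with the mean over the probes of a gene and in 4 to 6 on leaving out a mock channel. Each mock channel has a partner from the same mock sample that stayed in, so that no mock sample was left out in any comparison. PC3 and PANC-1 differed in 2 members with processed signals less the 75th percentile, in 4 with no minimum fold, and in 1 to 2 on leaving out a channel, where leaving out the first PANC-1 channel adds XPO5. For FaDu and PANC-1, with 1 sample each, the count was 3 on leaving out any channel, which says nothing of the spread within these lines. Taking all 8 mock channels as separate samples, the fit first planned and set beside the reported one after seeing the data, gave 5, 1 and 3. No paired analysis was possible because each transfection has 1 array. XPO5 probe 2 and TNRC6C probe 2 were too dim to be read on some or most arrays.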
